A study of Mus musculus with 6 samples.

Results

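Transcript levels of 36 genes of ribosome biogenesis were examined in mouse embryonic stem cells with lowered Chd9. The genes were taken by name from a list that covers RNA polymerase I and its factors, the protein partners of small nucleolar RNAs, abundant nucleolar proteins, and factors that process ribosomal RNA or assemble the ribosomal subunits. The array's annotation gave 70 probes to 35 of them and none to Fbl, out of 45281 probes and 19053 named genes in all. A probe counted as detected where its deposited detection p-value was under 0.05, and a probe was tested where 3 or more of the 6 arrays detected it. This left 53 probes of 32 genes, among 17719 probes of 10193 genes.

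The study compared 3 control samples with 3 samples that had received a short hairpin RNA vector (pHYPER) against Chd9, here called shChd9. Both groups were embryonic stem cells grown on mouse embryonic fibroblasts inactivated with mitomycin C, in medium with foetal bovine serum and leukemia inhibitory factor. Vectors went in by electroporation, and puromycin was applied from 24 h for a further 48 h, after which total RNA was prepared and hybridised to 1 Illumina bead array per sample. The labels give no strain, no content of the control vector and no word on whether the samples were separate cultures, and each p-value measures the spread among these 6 samples alone. All arrays lay on 1 slide, with each group in adjacent positions, so that position and group cannot be told apart.

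Ribosomes are built in the nucleolus. RNA polymerase I transcribes the ribosomal DNA repeats into a long precursor RNA, small nucleolar ribonucleoproteins (snoRNPs) guide its modification, and helicases, nucleases and assembly factors cut and fold it into the small and the large subunit. Stem cells that divide quickly make ribosomes at a high rate, and the Chd9 protein, a chromodomain helicase that acts on nucleosomes, has been linked to the nucleolus.

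The hairpin target was lower on every shChd9 array. The brightest Chd9 probe measured 7.36, 7.74 and 7.80 on control arrays 1 to 3 and 6.56, 6.32 and 6.64 on shChd9 arrays 1 to 3 (log2 normalized intensity), and the groups did not overlap. This was a 2.18-fold lower level, at a limma adjusted p of 0.388 over all genes. Another probe differed by -1.11 on the log2 scale, while a dim probe detected on 5 arrays differed by 0.35 ± 0.21 (SE) and the remaining probe was detected on 1 array and not tested. All 13 stem cell markers examined were detected on all 6 arrays. Of 29 fibroblast markers 27 had a probe and 22 were tested, 19 of them detected on all 6 arrays, whereas Postn was detected on no array and Col1a2, Col3a1, Col5a2 and Fap on too few to be tested.

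No ribosome biogenesis gene passed the test, and their values lay slightly lower in the shChd9 group. The limma adjusted p was at least 0.954 for each of the 32 tested genes, and 0 were called, as were 0% of all 10193 genes. At an unadjusted p under 0.05 limma found 0 of the 32, against 5.14% of all genes, and eBayes with an intensity trend and robust estimation found 1, Taf1d. The alternative settings given at the end found 0 to 2 each. Those found were Taf1d, Ddx10, Rrn3, Rrs1, Tcof1 and Nolc1, in different settings. The log2 fold change was below 0 for 24 of 32 members, or 75%, against 50.9% of all genes. The median over the members was -0.09, against 0.00 over all genes, and single values ran from -0.45 for Rrs1 to 0.16 for Ebna1bp2. The groups did not overlap in 2 members, Rrs1 and Rrp12, both lower in shChd9 (6.08% of all genes), and in 0 members that were higher (4.4%), against 10.5% of all genes in either direction. Rrs1 was detected on the 3 control arrays alone, so it entered the test only through the group where it is high. Its lower value and lack of overlap are therefore no support for a difference. Of the 30 members detected on all 6 arrays, 22 (73.3%) were below 0, with a median of -0.07 and 1 without overlap. The members share arrays and were chosen with earlier results of these data known, so that no test of the list was made.

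The arrays bound the size of any difference for most members. On the brightest tested probe of each gene, differences above 2-fold, up or down, lay outside the 95% intervals of all 32 tested members. Differences above 1.5-fold lay outside those of 21, and over all genes the shares were 93.1% and 51.5%. These intervals bound the measured signal. They do not bound the transcript difference of Rrs1 and Nolc1, near background with lower limits of -0.93 and -0.96. The same holds for Npm1, at the top of the intensity scale. On dimmer probes detected on all 6 arrays, the intervals reached past 2-fold for Ddx21 (-1.05 to -0.12) and Polr1a (-1.04 to 0.25). The median SE was 0.19 on the log2 scale, for members and for all genes. Raw mean intensities ran from 356 to 464 per array, and 17734 to 18457 probes were detected on each. The plot of fold changes shows the intervals of the brightest probes gene by gene.

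**Figure D1:**
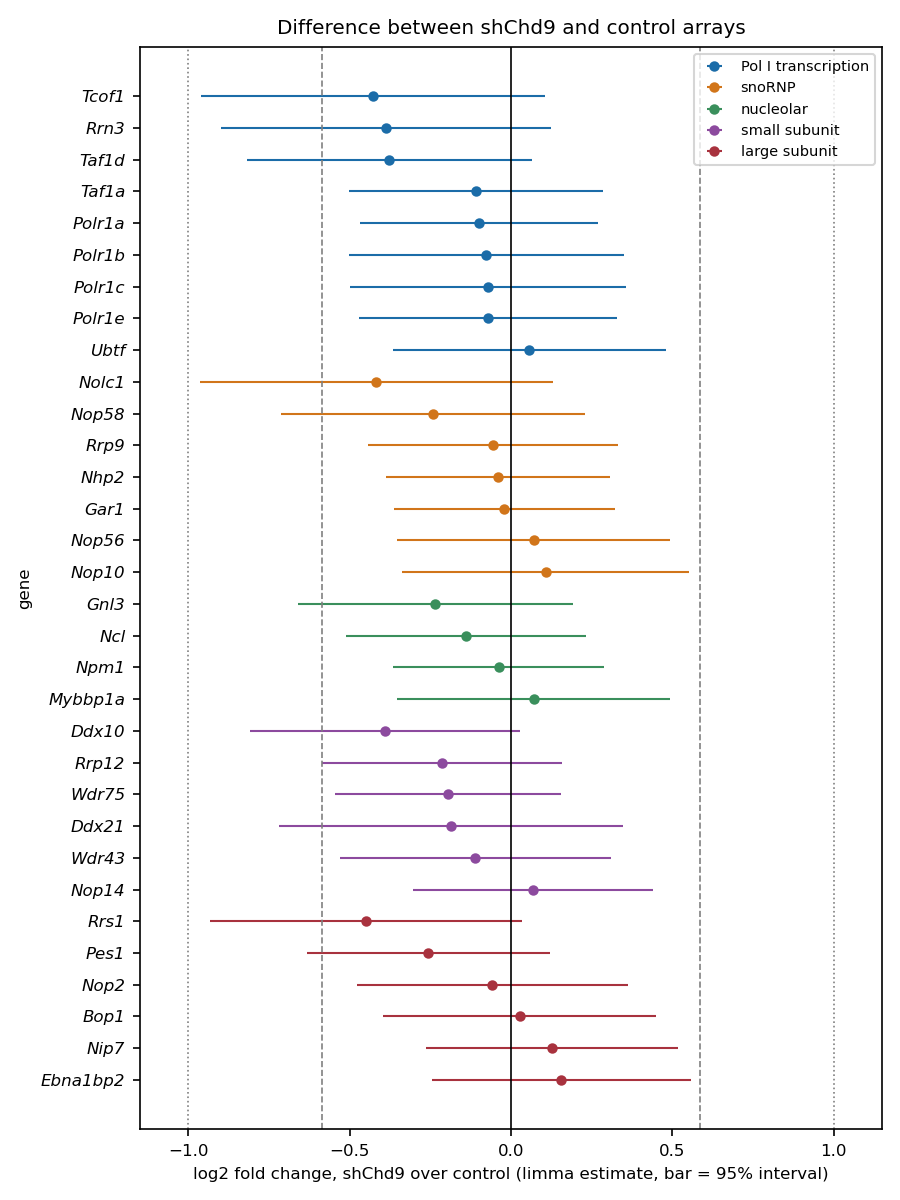
Log2 fold change of shChd9 over control (horizontal axis) for each of the 32 tested genes (vertical axis), with points for limma estimates from 3 arrays per group, bars for 95% intervals and colours for roles. Dashed lines mark 1.5-fold and dotted lines 2-fold: every interval, from the brightest probe of its gene, includes 0 and lies within the dotted lines.

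The lower values came from 2 of the 3 shChd9 arrays. On shChd9 array 1, 15 of 32 members lay below all 3 control arrays (27.5% of all genes did so there) and 0 lay above them (26.9%). On shChd9 array 3, 18 lay below all controls (27.3%) and 6 above (24.9%). On shChd9 array 2, by contrast, 3 lay below (21.8%) and 9 above (21.1%). Averaged over the 32 genes, control arrays 1 to 3 deviated from the gene means by 0.10, 0.05 and 0.04 and shChd9 arrays 1 to 3 by -0.16, 0.10 and -0.13 (log2). The group means of the members were 10.24 ± 0.03 and 10.11 ± 0.14 (log2 intensity, SD, n = 3 arrays each), and the groups overlapped, since shChd9 array 2 stood above all controls. In the heat map of the arrays, the columns of shChd9 arrays 1 and 3 hold the lowest value of 14 and 12 genes, and shChd9 array 2 holds none.

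**Figure D2:**
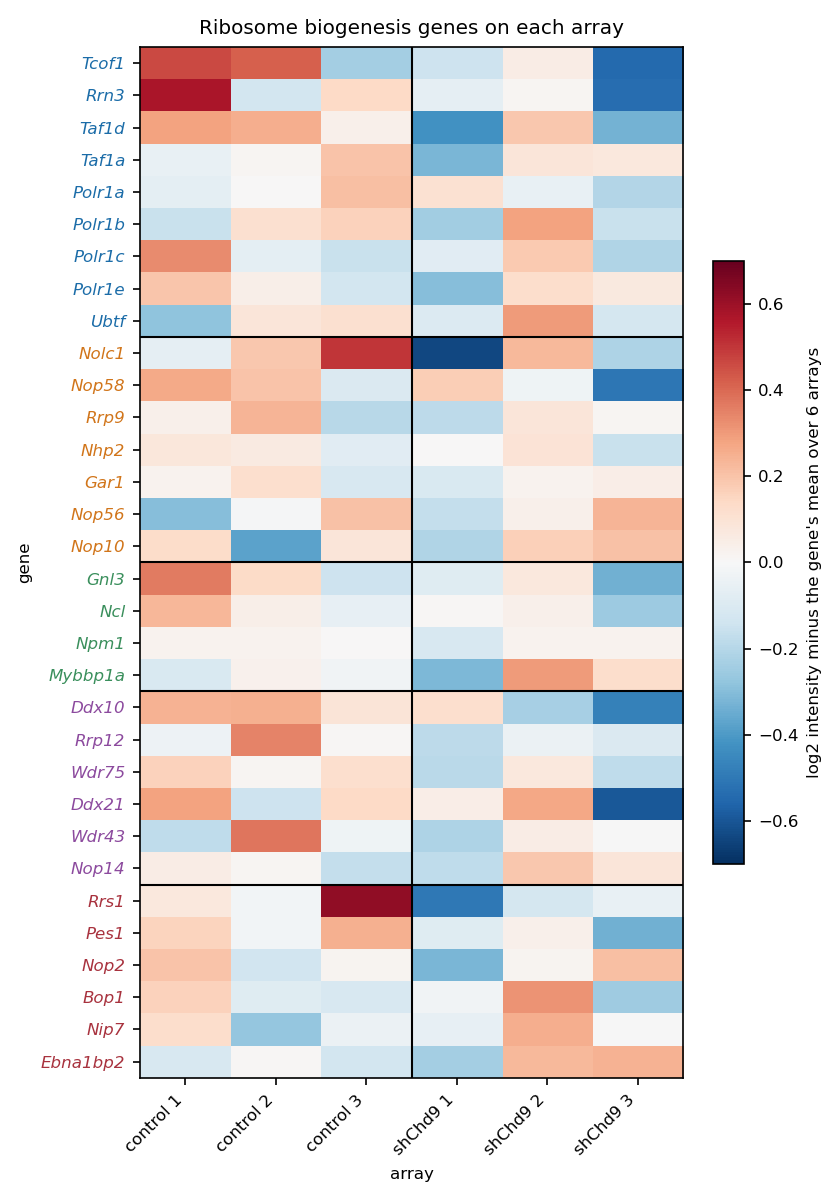
Log2 intensity minus the gene's own mean over the 6 arrays (colour) for the 32 tested genes (rows, ordered by role and by fold change within it) on each array (columns). Blue cells gather on shChd9 arrays 1 and 3, and shChd9 array 2 looks like the control arrays to the left of the line.

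The level of fibroblast markers, which feeder cells express, differed between the arrays. The log2 fold change was above 0 for all 22 tested fibroblast markers (median 0.39), and their summed level ranged from 10900 to 18800 in control and from 14400 to 24900 in shChd9 samples (normalized linear intensity). Control arrays 1 to 3 deviated from the marker means by 0.30, -0.72 and -0.17 and shChd9 arrays 1 to 3 by 0.77, -0.35 and 0.17 (log2). Single markers spread widely within a group, with Lum at 8.16, 4.76 and 5.45 on control arrays 1 to 3. On shChd9 arrays 1 to 3 Lum measured 8.75, 5.30 and 5.84. The marker mean was likewise highest on array 1 and lowest on array 2 of each group, where the numbers only follow the order of deposit. Leaving out 1 array moved the marker median to between 0.17 (shChd9 replicate 1) and 0.65 (control replicate 1), with 0.21 for control replicate 2 and 0.61 for shChd9 replicate 2. The array richest in fibroblast markers, shChd9 array 1, was thus the lowest in ribosome biogenesis genes. Control array 1 came next in fibroblast markers and was second highest in ribosome biogenesis genes, after shChd9 array 2. With the fibroblast marker mean as a covariate, 20 of 32 members were below 0 with a median of -0.04. Stem cell markers were above 0 in 8 of 13 genes (median 0.03), with a summed level of 74600 to 77700 in control and 75100 to 79400 in shChd9 samples. Dppa5a weighs most in this sum, at 15.14 to 15.24 (log2) over the arrays. It lies at the top of the intensity scale, where quantile normalization fixes the values, so the sum resolves small differences poorly. Single stem cell markers ran from -0.54 for Tdgf1 to 0.24 for Klf4. In bulk samples a smaller share of stem cells and less transcript per stem cell cannot be told apart.

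The median of the members rested in part on single arrays. Leaving out shChd9 replicate 1 gave -0.04, leaving out shChd9 replicate 3 gave -0.06, and the value was -0.17 when shChd9 replicate 2 was omitted and -0.15 when control replicate 3 was. In this order, the number of members below 0 was 17, 22, 28 and 25. The plot of array means shows the same by role.

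**Figure D3:**
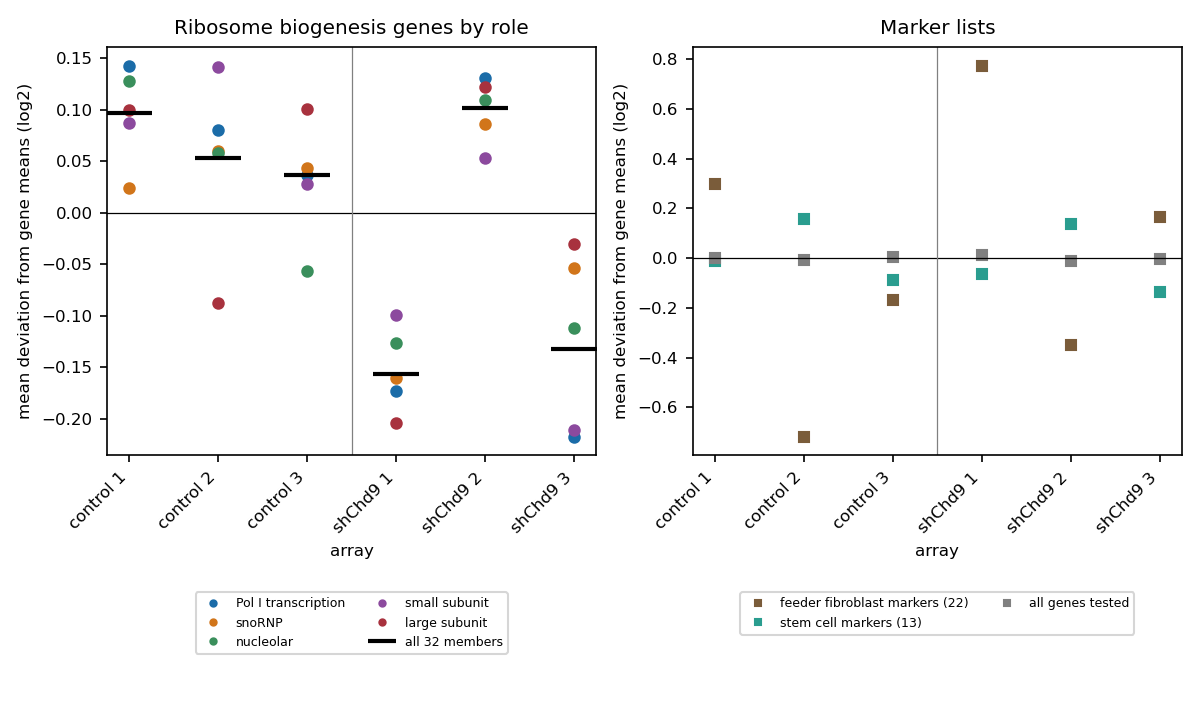
Mean deviation from the gene means (log2, vertical axis) on each of the 6 arrays (horizontal axis), for the members by role with a black bar for all 32 (left), and for fibroblast markers, stem cell markers and all tested genes (right, on a wider scale). The black bars stand at -0.16 and -0.13 on shChd9 arrays 1 and 3 and at 0.10 on shChd9 array 2, and fibroblast markers span -0.72 to 0.77.

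Among the genes of RNA polymerase I transcription, 8 of 9 were below 0, with a median log2 fold change of -0.10, with the lowest values in 3 regulatory factors. The median was -0.05 when shChd9 replicate 1 was left out and under median scaling, -0.18 when shChd9 replicate 2 was, and -0.16 and -0.15 when control replicates 1 and 3 were. Rrn3, the initiation factor that makes the polymerase competent to start, measured 9.54, 8.83 and 9.10 on control arrays 1 to 3 and 8.90, 8.98 and 8.43 on the shChd9 arrays. Control array 1 was the highest and shChd9 array 3 the lowest, and the groups overlapped (log2 fold change -0.39 ± 0.23 SE, limma adjusted p = 0.954). Tcof1, the treacle protein that works with the polymerase at ribosomal DNA, measured 8.73, 8.68 and 8.03 in the controls, against 8.12, 8.32 and 7.72 with the hairpin. Control array 3 lay within the shChd9 range, and the log2 fold change was -0.43 ± 0.24 (limma adjusted p = 0.954). The 2 dimmer Tcof1 probes gave -0.13 and -0.14.

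Taf1d and Taf1a are subunits of selectivity factor 1, which places the polymerase at the promoter. The brightest Taf1d probe measured 9.79, 9.77 and 9.54 in the controls, against 9.09, 9.70 and 9.18 with the hairpin. On shChd9 arrays 1 and 3 it lay below every control array and on shChd9 array 2 within the control range (-0.38 ± 0.20, limma adjusted p = 0.954). The other Taf1d probe pointed the opposite way, with 9.29, 8.40 and 8.75 in the controls, against 8.73, 9.08 and 9.26 with the hairpin and a log2 fold change of 0.21 ± 0.25. Which transcripts these probes match was not analysed here. Taf1a measured 8.54, 8.60 and 8.79 against 8.27, 8.67 and 8.66 (-0.11 ± 0.17), with overlapping groups.

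The catalytic subunits differed by less than the spread between arrays. Polr1a, the largest subunit, measured 11.52, 11.59 and 11.80 in the controls, against 11.70, 11.54 and 11.39 with the hairpin (-0.10 ± 0.16). Polr1b, the second largest subunit, measured 8.84, 9.10 and 9.15 against 8.75, 9.28 and 8.84 (-0.08 ± 0.19). Both pairs of groups overlapped. Polr1c, a subunit shared with RNA polymerase III, and Polr1e, a subunit particular to RNA polymerase I, each gave -0.07, with intervals from -0.50 to 0.36 and from -0.47 to 0.33.

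Ubtf, the upstream binding factor that keeps ribosomal DNA repeats open, was the 1 gene of this role above 0. It measured 10.06, 10.42 and 10.45 in the controls, against 10.24, 10.64 and 10.22 with the hairpin, with overlapping groups and a log2 fold change of 0.06 ± 0.19. Its dimmer probe gave -0.21 ± 0.19. Polr1a probes spread likewise, with 0.06, -0.24 and -0.40 on the 3 dimmer ones. In the plot of probes, 8 of the 15 members with several tested probes have values of both signs, against 1620 of 3647 among all genes.

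**Figure D4:**
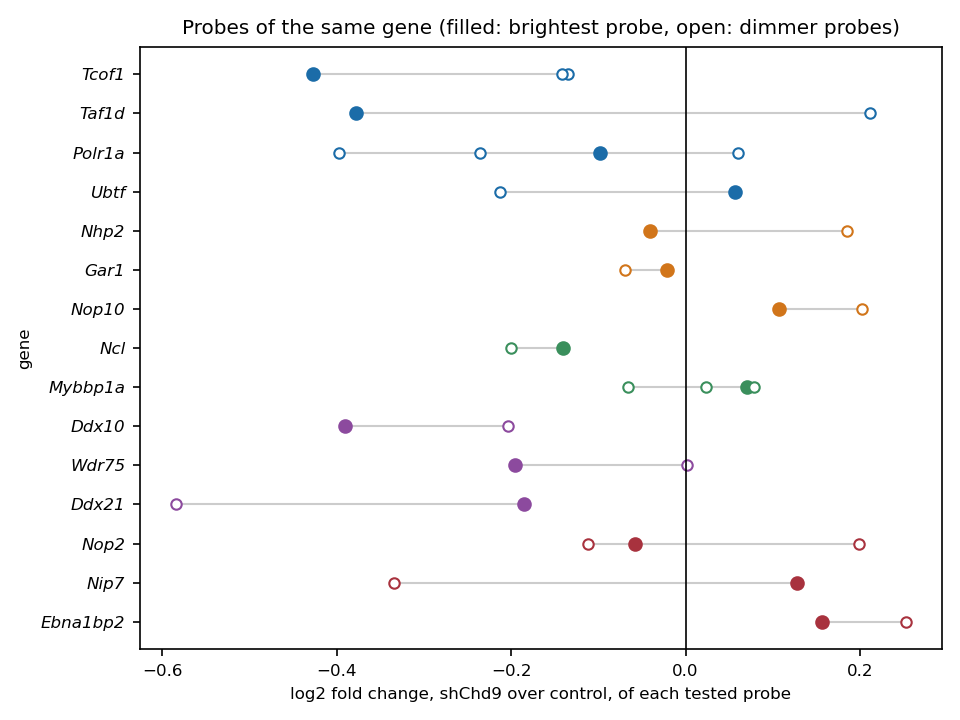
Log2 fold change of shChd9 over control (horizontal axis) of each tested probe for the 15 members with several tested probes (vertical axis). Filled points are the brightest probe of a gene and open points its dimmer probes: Taf1d runs from -0.38 to 0.21 and Nip7 from 0.13 to -0.33.

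Of the proteins of the snoRNPs, 5 of 7 tested genes were below 0, with a median log2 fold change of -0.04. The sign of this median turned to 0.02 when shChd9 replicate 1 was left out and with the fibroblast covariate, and it was -0.10, -0.02 and -0.09 when shChd9 replicate 2 and control replicates 2 and 3 were left out in turn. The particles are of 2 kinds, named box C/D and box H/ACA after the motifs in their guide RNAs. Of the box C/D core, Nop56 measured 10.72, 11.02 and 11.23 in the controls, against 10.86, 11.06 and 11.26 with the hairpin (0.07 ± 0.19), with both groups over the same range. Nop58 measured 11.83, 11.77 and 11.47 against 11.74, 11.54 and 11.06 (-0.24 ± 0.21). Its lowest value was again on shChd9 array 3, and the groups overlapped. The methyltransferase of these particles, Fbl, has no probe named here.

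Of the box H/ACA core, the pseudouridine synthase Dkc1 could not be assessed, since both of its probes were detected on 0 of the 6 arrays, with raw intensities of 87.2 to 118.2. Nhp2 measured 12.83, 12.81 and 12.67 in the controls, against 12.75, 12.84 and 12.59 with the hairpin (-0.04 ± 0.15), and its dimmer probe gave 0.18 ± 0.25. Nop10, the smallest core protein, measured 11.86, 11.36 and 11.82 against 11.52, 11.90 and 11.94 (0.11 ± 0.20). Both overlapped between groups. Gar1, which completes the particle, gave -0.02 with a 95% interval of -0.36 to 0.32, among the closest to 0 of all members.

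Nolc1, a phosphoprotein that chaperones snoRNPs, was near background, with its probe detected on 3 control and 2 shChd9 arrays. It measured 5.39, 5.64 and 5.95 in the controls, against 4.81, 5.68 and 5.24 with the hairpin. The groups overlapped through shChd9 array 2, and the log2 fold change was -0.42 ± 0.24 (limma adjusted p = 0.954). Rrp9, a protein of the U3 particle that acts in small-subunit processing, gave -0.06 with an interval of -0.44 to 0.33.

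Abundant nucleolar proteins were below 0 in 3 of 4 genes, with a median of -0.09 that became -0.05 and -0.06 when control replicate 1 and shChd9 replicate 3 were left out, and -0.14 under median scaling. Ncl, nucleolin, which binds the precursor RNA, measured 11.20, 11.01 and 10.91 in the controls, against 10.98, 11.01 and 10.71 with the hairpin. Its groups overlapped (-0.14 ± 0.17), and its second probe gave -0.20 ± 0.18. Gnl3, nucleostemin, a GTPase of stem cell nucleoli, measured 8.82, 8.59 and 8.31 against 8.37, 8.53 and 8.12 (-0.23 ± 0.19), also with overlap. Mybbp1a, a repressor of ribosomal DNA transcription, measured 12.11, 12.25 and 12.19 against 11.90, 12.52 and 12.34 (0.07 ± 0.19). The shChd9 arrays stood on both sides of the control range, and the 3 dimmer probes gave 0.02, -0.07 and 0.08.

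Npm1, nucleophosmin, a histone and ribosome chaperone, lay at the top of the intensity scale, where quantile normalization fixes the values. Counted from the brightest probe, it ranked 3 or 4 on 5 arrays and 15 on shChd9 array 1. Normalized, it stood at 15.17, 15.17 and 15.15 in the controls, against 15.04, 15.17 and 15.17 with the hairpin (-0.04 ± 0.15). The raw intensities were 39382, 40714 and 35094 in the controls, against 32214, 38298 and 31808 with the hairpin. Small differences of this gene are therefore not resolved.

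Small-subunit processing factors had the lowest median of the 5 roles, at -0.19, with 5 of 6 tested genes below 0. This median was -0.15 under median scaling and -0.18 without background correction. Rrp12, a protein of pre-ribosome maturation and export, measured 11.28, 11.66 and 11.33 in the controls, against 11.13, 11.28 and 11.22 with the hairpin. The groups separated by a narrow margin at control array 1 (-0.21 ± 0.17, limma adjusted p = 0.956). Ddx10, a helicase whose yeast counterpart acts in small-subunit processing, measured 7.44, 7.44 and 7.29 against 7.31, 6.96 and 6.72. It had the smallest unadjusted p of the members with a log2 fold change of -0.39 ± 0.19 (limma adjusted p = 0.954), and overlapped between groups at shChd9 array 1 alone. Its dimmer probe gave -0.20 ± 0.29.

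Wdr75, a member of the complex that loads early on the nascent precursor, measured 11.90, 11.75 and 11.85 in the controls, against 11.55, 11.81 and 11.56 with the hairpin. It lay below all controls on shChd9 arrays 1 and 3 only (-0.20 ± 0.16), and its dimmer probe gave 0.00 ± 0.22. Ddx21, a helicase that acts on both polymerase I transcription and rRNA processing, measured 10.93, 10.51 and 10.79 against 10.70, 10.92 and 10.05 on its brightest probe (-0.19 ± 0.24), where the low value of shChd9 array 3 stands out. Its dimmer probe measured 8.46, 8.33 and 7.83 against 7.82, 7.63 and 7.40. There the groups did not overlap and the log2 fold change was -0.58 ± 0.21, which limma did not call over all probes (adjusted p = 0.911).

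Wdr43, of the same early complex as Wdr75, gave -0.11 with an interval of -0.53 to 0.31. Nop14, a small-subunit assembly factor, gave 0.07 with an interval of -0.30 to 0.44. Utp20, a large scaffold protein of the small-subunit precursor, was detected on 0 of the 6 arrays by its 1 probe.

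Large-subunit assembly factors were divided, with 3 of 6 tested genes above and 3 below 0 and a median of -0.02. The sign of this median depended on the arrays and settings, with 0.07 when control replicate 1 or shChd9 replicate 1 was left out, -0.10 when shChd9 replicate 2 was, and -0.07, -0.04 and -0.04 when control replicates 2 and 3 and shChd9 replicate 3 were. It was also above 0 under median scaling (0.04), with no detection filter (0.02) and among genes detected on all 6 arrays (0.03). Bop1 and Pes1 form a complex with Wdr12 that is needed to mature the large-subunit RNA. Bop1 measured 9.48, 9.23 and 9.20 in the controls, against 9.29, 9.63 and 9.07 with the hairpin (0.03 ± 0.19), with shChd9 values on both sides of the controls. Pes1 measured 9.15, 8.98 and 9.25 against 8.92, 9.04 and 8.66 (-0.26 ± 0.17, limma adjusted p = 0.954), and shChd9 array 2 alone lay within the control range. Wdr12 was detected on 0 arrays by its 1 probe, so that this partner could not be compared.

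Rrs1, which helps to bring 5S ribonucleoprotein components into the large-subunit precursor in yeast, was near background. Its probe was detected on all 3 control arrays and on no shChd9 array, with 4.93, 4.84 and 5.48 against 4.36, 4.74 and 4.81. The groups did not overlap. The log2 fold change was -0.45 ± 0.21 (limma adjusted p = 0.954), with an interval of -0.93 to 0.03 that includes 0. The control mean was 1.19-fold above a floor, the mean of the lowest detected signals of the shChd9 arrays. This ratio leaves out the spread between arrays and is no lower bound of the difference. The raw intensities were 123.57, 121.34 and 126.42 in the controls, against 103.25, 123.14 and 105.58 with the hairpin. Before normalization shChd9 array 2 thus lay above control array 2. Nip7, also of large-subunit maturation, measured 11.39, 10.998 and 11.23 against 11.21, 11.52 and 11.27 (0.13 ± 0.17). A Nip7 probe near background, detected on the 3 control arrays only, gave -0.33 ± 0.19 and no overlap. Like the Rrs1 probe, it entered the test only through the controls, so its lack of overlap is no support for a difference.

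Ebna1bp2, a large-subunit factor that in yeast acts with Rrs1, had the highest log2 fold change of the members. It measured 11.45, 11.57 and 11.44 in the controls, against 11.33, 11.79 and 11.81 with the hairpin. On shChd9 arrays 2 and 3 it lay above the controls and on shChd9 array 1 below them (0.16 ± 0.18), and its dimmer probe gave 0.25 ± 0.19. Nop2, an RNA methyltransferase, measured 10.25, 9.92 and 10.07 against 9.73, 10.07 and 10.26 (-0.06 ± 0.19), and its dimmer probes gave -0.11 and 0.20. Both genes followed the same order over the shChd9 arrays, with array 1 lowest and array 3 highest.

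Other genes of ribosome biogenesis showed a smaller offset. Of 110 further genes of the pathway 105 had a probe and 89 were tested, of which 0 passed (limma adjusted p at least 0.924), 53 were below 0 and the median log2 fold change was -0.03. This median was 0.01 with the fibroblast covariate and 0.00 under median scaling, and it ran from -0.08 without shChd9 replicate 2, through -0.05 without control replicate 1 or 3 and -0.01 without control replicate 2, to -0.01 without shChd9 replicate 1. At an unadjusted p under 0.05 limma found 3 lower (2.92% of all genes) and 1 higher (2.22%), and the groups did not overlap in 10 that were lower (6.08% of all genes) and 2 that were higher (4.4%). The 3 lower of 89 tested genes are near the share of all genes at this unadjusted p. All 3 belong to small-subunit processing, where 20 of 32 genes were below 0 with a median of -0.04. Utp15, of the same early complex as Wdr43 and Wdr75, measured 5.96, 5.54 and 5.91 against 4.82, 5.21 and 5.21 (-0.72 ± 0.19, limma adjusted p = 0.924), near background and detected on 2 of the shChd9 arrays. The 3 control arrays, where it is high, were enough for it to be tested, so its lower value is no support for a difference.

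Pno1, a late small-subunit assembly factor, measured 11.78, 11.94 and 11.80 in the controls, against 11.38, 11.61 and 11.37 with the hairpin. All 3 shChd9 arrays lay below the controls, at -0.39 ± 0.16 (limma adjusted p = 0.924). Nol11, a further early factor, measured 9.26, 9.29 and 9.22 against 9.02, 8.93 and 8.71 (-0.37 ± 0.16, limma adjusted p = 0.941), again without overlap.

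In the other groups, genes stood on both sides of 0. Of 7 further polymerase I genes 5 were below 0, with Baz2a, which silences ribosomal DNA repeats, at -0.49 ± 0.25, Polr1d, a subunit shared with RNA polymerase III, at -0.22 ± 0.15 and Polr2h, shared by all nuclear polymerases, at -0.15 ± 0.17. Of 40 further large-subunit genes 23 were below 0, with Surf6 at 0.54 ± 0.19, Noc3l at -0.28 ± 0.15 and the helicase Ddx51 at -0.29 ± 0.17. Of 10 exosome genes, whose complex trims precursor RNA, 5 were below 0, with the helicase Mtrex at -0.34 ± 0.16, Exosc2 at -0.24 ± 0.15 and Exosc8 at -0.22 ± 0.16. The plot of the gene groups sets these beside the members.

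**Figure D5:**
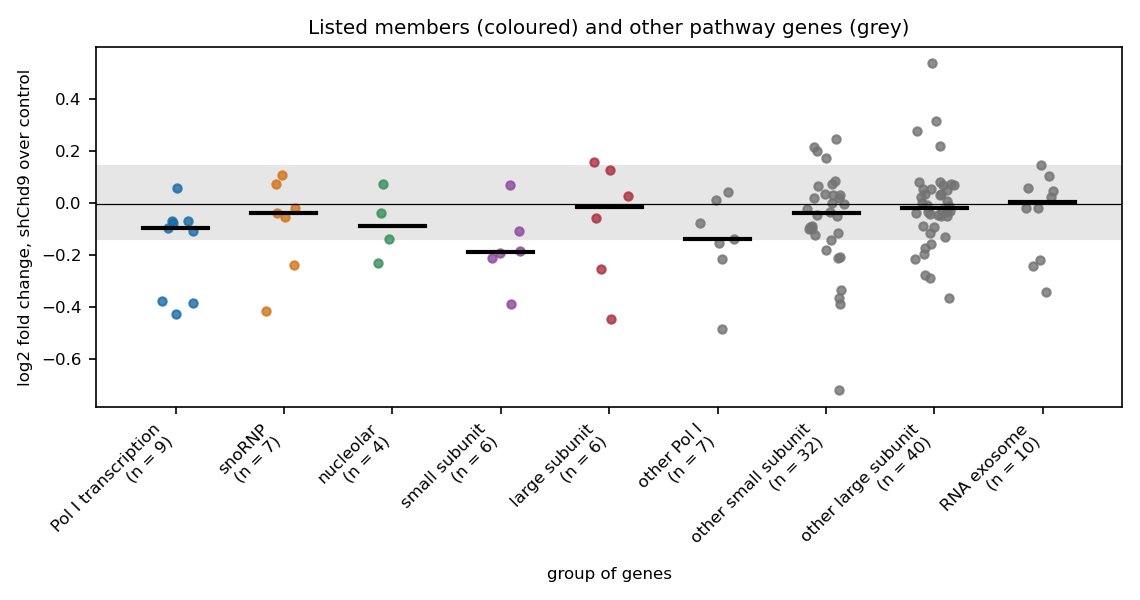
Log2 fold change of shChd9 over control (vertical axis) of each tested gene, for the 5 roles of the members (coloured) and 4 groups of other pathway genes (grey), with black bars for medians. The grey band runs from the lower to the upper quartile of all 10193 genes, and the medians lie within it except that of small-subunit processing among the members, at -0.19.

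Myc, a transcription factor that activates many ribosome biogenesis genes, measured 6.02, 6.00 and 5.69 in the controls, against 6.31, 6.15 and 5.88 with the hairpin (0.21 ± 0.18, limma adjusted p = 0.956), with overlapping groups. The 1 probe of Mycn was detected on 0 arrays. Of 8 tested genes of the Myc network 5 were above 0. Mnt, a repressor of the network, measured 5.54, 4.29 and 4.68 against 5.84, 5.63 and 5.79 (0.92 ± 0.28, limma adjusted p = 0.924), without overlap. It was detected on 1 control array and on 3 shChd9 arrays. The shChd9 arrays, where it is high, were enough for it to be tested, so its lack of overlap is no support for a difference. Max, the common partner, gave 0.28 ± 0.17 and Mxd4, another repressor, 0.30 ± 0.20.

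Some promoters of the members hold the site that this network binds. A window from 250 bases before to 50 bases after the gene start was found for 30 of the 36 genes in RefSeq (GRCm38.p6), and for Tcof1, Fbl, Npm1, Rrp12, Bop1 and Rrs1 none was used. The E-box CACGTG, the site that Myc and its partners bind and which reads the same on both strands, stood in 6 of the 30 genes' windows, or 20.0%. It stood in 8.1% of 27025 genes with a window, in 8.9% of 17492 protein-coding ones and in 20.0% of the 90 other pathway genes with a window. The 6-base word TCGCGA, also a palindrome, was in 4 of the 30, or 13.3%, against 2.9% of all, 3.8% of protein-coding and 7.8% of the other pathway genes. The median window held 20 CpG dinucleotides for members, 22.2 for the other pathway genes, 7 over all genes and 13 over protein-coding genes. A match describes the letters only.

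The E-boxes of the members are shown, in capitals with up to 10 bases on each side, because this site is the one the Myc network binds. They lie at chr16:13780474-13780499 and chr16:13780641-13780666 (Rrn3, plus strand, 215 and 48 bases before the start), chr6:125131813-125131838 (Nop2, plus, 60 before), chr11:3963967-3963992 (Pes1, plus, 2 past the start), chr17:71616222-71616247 (Wdr43, plus, 17 past), chr10:88826765-88826787 (Utp20, minus, 37 past) and chr11:72441357-72441376 (Mybbp1a, plus, 40 past).
Rrn3 distal: gcgccaaggtCACGTGcacacgcctc
Rrn3 proximal: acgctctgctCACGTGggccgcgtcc
Nop2: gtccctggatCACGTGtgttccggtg
Pes1: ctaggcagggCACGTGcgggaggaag
Wdr43: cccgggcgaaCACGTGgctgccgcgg
Utp20: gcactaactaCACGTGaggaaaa
Mybbp1a: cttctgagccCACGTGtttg

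The log2 fold changes of these 6 genes were -0.39 for Rrn3, -0.26 for Pes1, -0.11 for Wdr43, -0.06 for Nop2 and 0.07 for Mybbp1a, with Utp20 not detected. They thus spread over most of the members' range. Rrn3 is the 1 member with a pair of E-boxes, and the 250 bases before its start (chr16:13780449-13780698, plus strand) are given with both in capitals.
Rrn3 promoter: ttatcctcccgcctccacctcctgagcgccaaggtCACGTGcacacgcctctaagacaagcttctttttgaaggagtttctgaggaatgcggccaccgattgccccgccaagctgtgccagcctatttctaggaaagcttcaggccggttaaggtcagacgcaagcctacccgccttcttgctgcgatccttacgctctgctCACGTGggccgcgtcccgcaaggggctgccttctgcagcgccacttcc

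The TCGCGA sites lie at chr1:59684846-59684871 (Nop58, plus strand, 150 bases before the start), chr5:34660166-34660191 and chr5:34660137-34660162 (Nop14, minus, 33 and 4 before), chr11:72441078-72441103 (Mybbp1a, plus, 239 before) and chr17:46248034-46248059 (Polr1c, minus, 4 before), and are shown in the same way.
Nop58: aaaaaaagtcTCGCGAtattttaagg
Nop14 distal: tgtgtacttcTCGCGAaatacgggaa
Nop14 proximal: gacgcactcaTCGCGAgacgaagctg
Mybbp1a: tcggactagaTCGCGAgcagacccgg
Polr1c: gggcaagatcTCGCGAcattcaagat

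Several members also carry genes of small nucleolar RNAs within their own bounds, which RefSeq places there. This held for 7 of the 36 members, or 19.4%, against 1.7% of 21900 protein-coding genes and 2.86% of 105 other pathway genes. They were Taf1d with 6 such genes, Nop56 with 5, among them Snord57 and Snord110, and Nop58 with 4, among them Snord11 and Snord70. Gnl3 and Wdr43 held 3 each, Ncl held Snora75 and Snord82, and Dkc1 held 1. Strand was not considered, and the small RNAs themselves were not analysed here. Of the 6 hosts that were tested, 5 were below 0, near the share of all members (75%), against 50.9% of all genes. Their values ran from -0.38 for Taf1d, whose other probe gave 0.21, to -0.11 for Wdr43, and Nop56 was at 0.07.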

How the data were processed

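Per the file headers, each probe has 1 averaged, linear intensity per array in the deposited table, beside the authors' detection p-value. Per the submitters' processing notes, GenomeStudio was used; its settings are not given in the sources used here. The second deposited intensity table was found to be the raw values quantile normalized (largest difference 1.06), and served as an alternative. Its column medians were 111.400, 111.389 and 111.397 for control and 111.377, 111.385 and 111.368 for shChd9 arrays. Its scale is linear, without centring.

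Gene names came from GEO's platform annotation, updated through Entrez identifiers or accessions in RefSeq (34885 probes with 1 symbol, 18 with several, 10378 with none). With limma 3.58.1 in R 4.3.3, neqc corrected background, added an offset of 16, quantile normalized and took log2. All tested probes were fitted together with lmFit and eBayes, two-sided. Each gene was represented by its tested probe with the highest mean, and p-values were Benjamini-Hochberg adjusted over all 10193 genes (or 17719 probes where a probe is named) at a threshold of 0.05. Fold changes are shChd9 over control, as log2 with moderated SE. The fit was also run on simulated data with independent values for each probe and array. Those data lack the shifts shared by many genes between arrays, so that run does not check the test under such shifts.

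Members, roles, pathway and marker lists were chosen with earlier results of these data known. Arrays are given for the 4 members of each role with the smallest p, those without overlap between groups, not detected in a group, or with probes of both signs, and for Polr1a, Polr1b, Ubtf, Rrn3, Ncl, Npm1, Fbl, Nop56, Dkc1 and Bop1. For other lists up to 3 genes with the smallest p are named, and always Myc and Mycn. Precision is limited by having 3 arrays in a group, and for dim probes by signal over background.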

Additional observations from a re-analysis of the deposited data

How the results depend on the processing

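All 15 alternatives called 0 members, with a lowest limma adjusted p of 0.649, and 0 genes in all, except that eBayes with trend and robust estimation called 1, BC052688. Members below 0 numbered 17 to 28 of 32 with an array left out. They numbered 26 of 35 with no detection filter, 22 of 30 among genes detected on all 6 arrays, and 20 to 24 of 32 otherwise. The members' median ran from -0.17 to -0.04 with an array left out. It was -0.06 under median scaling, where the median of all genes was 0.04, and -0.04 with the fibroblast covariate. Both Chd9 probes stayed below -1 where neqc was kept and gave -0.68 and -0.66 without background correction. Of 32 members 14 kept their sign throughout, 13 of them lower. The other 18 had values from -0.19 (Ddx21) to 0.13 (Nip7), and the cause of their sign changes was not tested. Trend and robust estimation and the changed detection filters could not turn a sign, since they leave a member's fold change as it was. The deposited table, being quantile normalized raw values, nearly repeats the setting without background correction. With the fibroblast covariate Polr1b was 0.066, Gar1 0.023, Rrp9 0.033 and Wdr43 0.039. With the mean of a gene's probes Ubtf was -0.078, Nhp2 0.072, Nop2 0.0097 and Nip7 -0.10, and under median scaling Nop2 was 0.0064. With an array left out, values ran from -0.24 to 0.028 for Polr1b, -0.18 to 0.077 for Polr1c, -0.15 to 0.060 for Polr1e, -0.080 to 0.13 for Ubtf, -0.18 to 0.024 for Taf1a, -0.061 to 0.19 for Nop56, -0.10 to 0.028 for Nhp2, -0.052 to 0.24 for Nop10, -0.083 to 0.032 for Gar1, -0.17 to 0.049 for Rrp9, -0.065 to 0.0085 for Npm1, -0.061 to 0.24 for Mybbp1a, -0.010 to 0.17 for Nop14, -0.23 to 0.048 for Wdr43, -0.37 to 0.065 for Ddx21, -0.12 to 0.16 for Bop1 and -0.18 to 0.089 for Nop2. No paired analysis was possible because the labels number no replicates, and the numbers used here only follow the order of deposit.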
